A study of Mus musculus with 8 samples.

Results

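The miR-92 seed family was examined in basal progenitors of the mouse embryonic cortex. Its listed members were mmu-miR-92a, mmu-miR-92b, mmu-miR-25, mmu-miR-32 and mmu-miR-363, written without the species prefix from here on and taken as the mouse probes whose target name was one of these 5 miRNAs, a rule that uses no measured value. All 5 were on the array, 5 of 611 mouse miRNAs, and they were read by 14 of 1759 mouse probes. The samples were basal progenitors sorted by FACS from brain cortex at embryonic day 16 (E16) and at embryonic day 13 (E13), 4 biological replicates per stage, each marked WT in the labels. The sources used here do not give the strain or the sorting gate. The total RNA of each replicate carried a cyanine-3 label, and 1 Agilent miRNA array was used per replicate. The submitters' design text names 3 litters for the 4 replicates of a stage, so some replicates may share a litter unless litters were pooled, and the p-values measure the spread between these samples. On the slides, E16 arrays took the first row and E13 arrays the second, so the row and the stage cannot be told apart. E16 replicate 1 lay on slide 1, in scan session 1, with no E13 array. The comparison asks how the level of each member differed between a later and an earlier stage of cortical neurogenesis.

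A miRNA guides an Argonaute protein to messenger RNAs, and the seed, the stretch near its 5′ end, does most of the base pairing that selects a target. miRNAs with the same seed can therefore repress overlapping sets of messenger RNAs, whichever gene they come from. In the mouse cortex, miR-92b is known to repress Tbr2 (Eomes), the transcription factor that marks basal (intermediate) progenitors, and the miR-17-92 cluster that encodes miR-92a is known to promote the expansion of neural progenitors.

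The mature sequences show what the members share and where the closest pair differs. They are from RefSeq (GRCm38.p6), 5′ to 3′, with the seed (bases 2 to 8) in capitals.
miR-92a: uAUUGCACuugucccggccug
miR-92b: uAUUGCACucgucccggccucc
miR-25: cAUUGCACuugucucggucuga
miR-32: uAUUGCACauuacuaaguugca
miR-363: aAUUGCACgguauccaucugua
All 5 carry the seed AUUGCAC. It stands in 6 of the 1679 mature names of the RefSeq set, the sixth being miR-367, a miRNA best known from embryonic stem cells. Outside the seed the members differ more. With positions counted from 1 at the 5′ end and the base of miR-92a given first, miR-92b has the same base at 19 of 21 positions and differs by U10C and G21C. miR-25 has the same base as miR-92a at 18 of 21 positions and differs by U1C, C14U and C18U, whereas miR-32 shares 11 and miR-363 shares 10 of them.

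The members come from separate places in the genome. miR-92a has 2 genes, Mir92-1 within Mir17hg, the host of the miR-17-92 cluster, and Mir92-2 in the X-linked miR-106a-363 cluster beside Mir363. Mir25 lies with Mir93 and Mir106b inside Mcm7, which encodes a subunit of the replicative helicase, Mir32 lies inside Tmem245, and Mir92b overlaps no other gene in the RefSeq annotation. In the coordinates of the array files (mm9), the brightest probe of miR-92a matched chromosome 14 from 115443702 to 115443718 and chromosome X from 50095073 to 50095089, so its signal is the sum over both genes. The brightest probe of miR-92b matched chromosome 3 from 89031099 to 89031110, that of miR-25 chromosome 5 from 138606605 to 138606621, that of miR-32 chromosome 4 from 56908109 to 56908127 and that of miR-363 chromosome X from 50094923 to 50094940. Except for miR-92a, these deposited spans are 1 base shorter than the probe.

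An Agilent miRNA probe pairs with the 3′ part of the miRNA, so the probes reach the bases in which the members differ. The probes of miR-92a and miR-92b decide how far their signals can be told apart. In the lines that follow, 5′ to 3′, the capital marks the probe base that pairs with base 10 of miR-92b, the inner base at which it differs from miR-92a.
miR-92a, 17 bases: caggccgggacaagtgc
miR-92b, 13 bases: ggaggccgggacG
miR-92b, 12 bases: ggaggccgggac
miR-25, 18 bases: tcagaccgagacaagtgc
The 13-base probe of miR-92b shares a run of 10 bases with the complement of miR-92a. Cross-hybridisation between the members was not tested. The 10-, 11- and 12-base probes of miR-92b end before base 10, and 0 of their 117 spots were well above background on any array (probe means from -4.09 to 2.04), so the values of miR-92b come from the 13-base probe alone.

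Arrays differed in brightness. The 75th percentile of the processed signal, over 126 mouse probes that exceeded background clearly on every array, lay between 109 and 748 on the E16 arrays and between 162 and 490 on the E13 arrays. From 76 miRNAs (E16 replicate 4) to 206 miRNAs (E13 replicate 3) were well above background on an array. Neural miRNAs were present throughout, with 4 of 4 listed (miR-9, miR-9*, miR-124 and miR-128) well above background on all 8 arrays and a summed scaled signal of 11.3 to 19.2 at E16 and 9.67 to 17.2 at E13. Of 13 miRNAs that mark red blood cells, endothelium, white blood cells and microglia, muscle or liver, 0 were well above background on any array. The array carries miRNA probes, so Tbr2 and the other messenger RNAs that define basal progenitors were not checked.

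**Figure D1:**
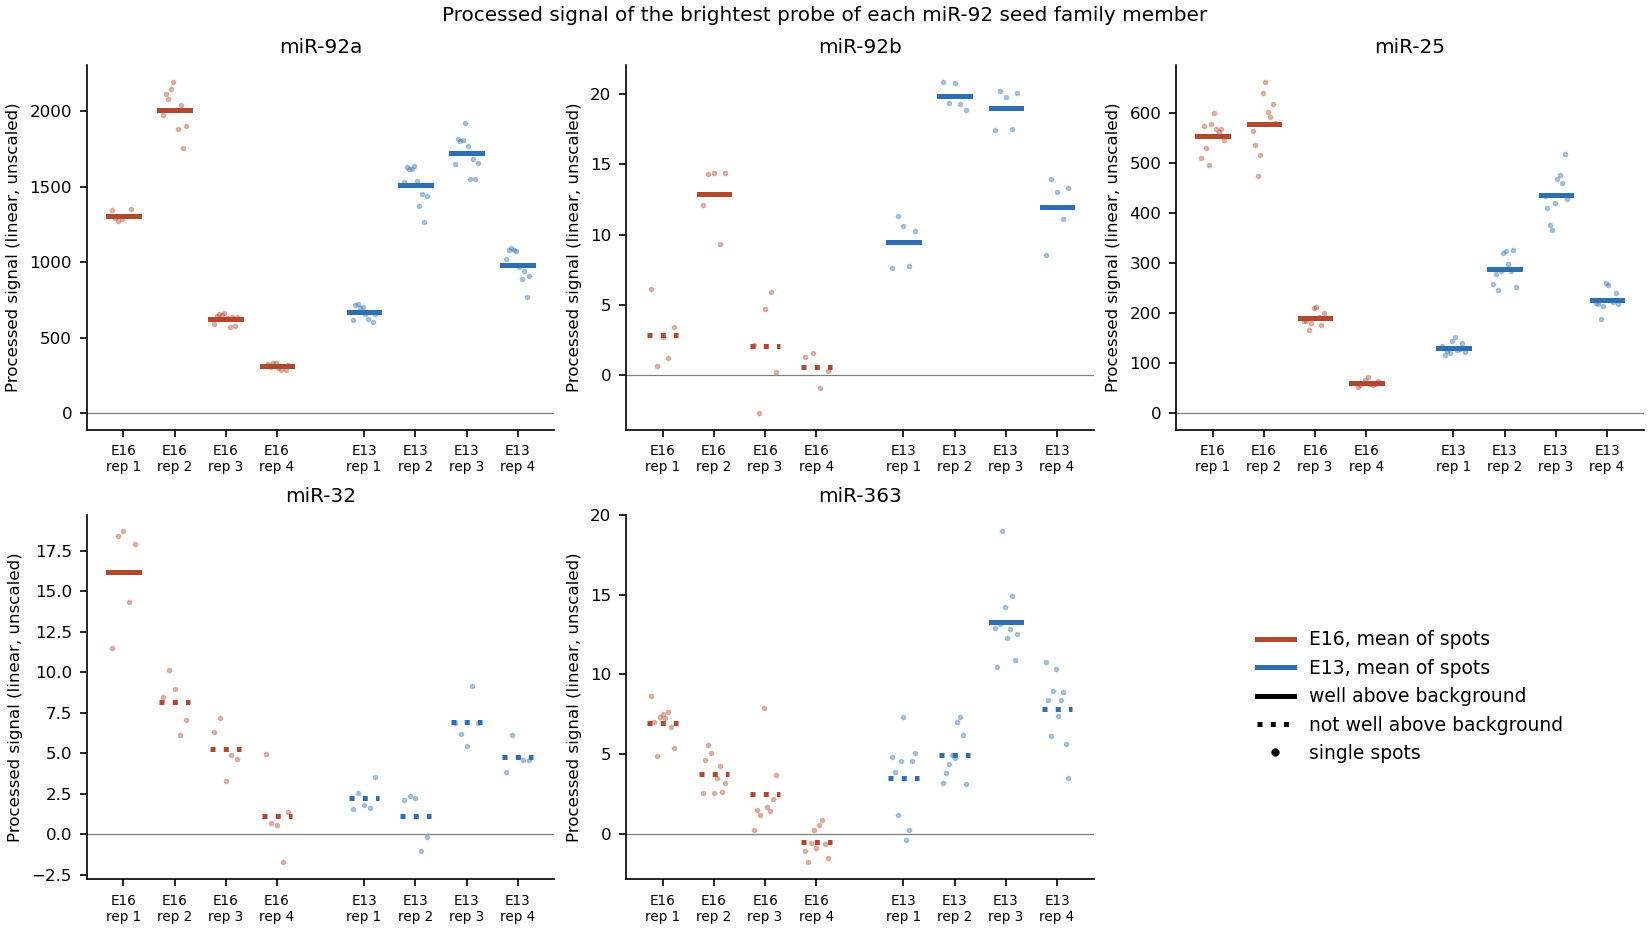
Processed signal (arbitrary intensity units, linear axis, before any scaling) of the brightest probe of each member on each array, with E16 arrays left of E13 arrays. Points are single spots and horizontal bars their mean, solid where the probe was well above background, which holds for all 8 arrays in miR-92a and miR-25, for 5 in miR-92b and for 1 each in miR-32 and miR-363.

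At E16, miR-92a was lower than at E13 under the scaling used here, miR-92b was detected on fewer arrays and miR-25 did not pass the test. Of the 3 members that met the filter, limma called 2 lower (miR-92a and miR-92b) and 0 higher. The call of miR-92b is not a test of its size or spread, because it met the filter through the 4 E13 arrays and 3 of its 4 E16 values are floor values. Without E13 replicate 1, E13 replicate 2 or E16 replicate 3, miR-92b alone was called lower. In RNA from a sorted population, fewer cells that hold a miRNA and less of it per cell cannot be told apart. The tests were made with limma on log2 signals after each array was divided by its 75th percentile, adjusted over all 153 miRNAs detected clearly (well above background) on 4 or more arrays, with a threshold of 0.05. Over those 153 miRNAs, 26.1% were lower at E16 and 7.19% higher, and 30.7% had all 4 E16 values below all 4 E13 values and 7.84% all 4 above. With any 1 E13 array left out and the filter kept at 4 arrays, fewer miRNAs were tested (131 to 148). Of these 22 to 24 were lower at E16, against 40 of 153 with all arrays. Leaving out E16 replicate 4 raised those higher to 23, against 11. The median log2 difference (E16 minus E13) was -0.40 over all 153 miRNAs. The 3 members tested lay on both sides of it, with miR-25 at -0.23, miR-92a at -0.66 and miR-92b, with 3 floor values, at -1.59. The general shift depends on the scaling. When all mouse probes set the percentile, its value was 0.486 to 3.76 on the E16 arrays and 1.60 to 4.36 on the E13 arrays, under the lowest signal well above background on any array (7.43). The median difference was then 0.41, with 30.7% of miRNAs higher and 10.5% lower, and -0.09 after quantile normalization.

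miR-92b, the family member tied to Tbr2, was dim at both stages and detected on fewer arrays at E16. Its processed signal was 2.84, 12.9, 2.07 and 0.566 on E16 replicates 1 to 4, against 9.50, 19.8, 19.0 and 12.0 on E13 replicates 1 to 4. The probe was well above background on 1 of 4 E16 arrays, replicate 2, and on all 4 E13 arrays. By single spots, 4 of 19 were well above background at E16, all on replicate 2, against 16 of 20 at E13. Detection was marginal on E13 replicates 1 and 4, with 3 of 5 spots each. On E13 replicate 1 the miR-92b signal was itself the lowest signal well above background, and on E13 replicate 4 that lowest signal was 11.7. The unscaled ranges overlapped through E16 replicate 2, the array with the highest 75th percentile, whose value of 12.9 exceeded 2 of the 4 E13 values.

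After scaling, the 4 E16 values of miR-92b lay below the 4 E13 values. The scaled log2 signal was -5.86 on E16 replicate 2 and at the floor of -5.96 on the other E16 arrays, against -4.10, -4.00, -4.69 and -4.61 on E13 replicates 1 to 4. The fitted log2 difference was -1.59, but the 3 E16 values at the floor are identical by construction, so its size is not exact and its p is not given. With the mean of all 4 probes, 3 of which stayed at background, the difference was -0.40, and relative to the median of all tested miRNAs it lay between -1.62 and -0.20 under the 6 scalings and background corrections compared. Unscaled miR-92b signals on arrays of like miR-92a signal, chosen after the values were seen, are given as a description only. E16 replicates 2 and 4, with miR-92a signals of 2008 and 310, lay outside the E13 range of miR-92a and were not matched. miR-92a was itself called lower at E16 under the scaling used here, so it is not a neutral match. E16 replicate 3 and E13 replicate 1 lay on the same slide and had miR-92a signals of 625 and 667, and their miR-92b signals were 2.07 and 9.50. E16 replicate 1 had a miR-92a signal of 1308, between those of E13 replicates 4 and 2 (983 and 1509), and its miR-92b signal was 2.84, against 12.0 and 19.8 on those E13 arrays. It shared neither slide nor scan session with them.

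The detection limit of each array, the lowest signal among its probes well above background, was also put in place of undetected values. It is a minimum over detected probes and not a strict upper bound on an undetected level. In scaled log2 units the limit was -5.96 on E16 replicate 1, -4.98 on E16 replicate 3 and -3.53 on E16 replicate 4, against a lowest E13 value of -4.69. E16 replicates 1 and 3 at their limits, and replicate 2 at its measured value, thus lay below the E13 range. On the dimmest array, E16 replicate 4, a level as high as those at E13 would not have been detected. With the undetected E16 values set to their limits the log2 difference was -0.73, which puts E13 1.66-fold above E16. Only the E16 value of replicate 2 was measured, and the other E16 values are array limits. The interval and p are therefore not given, and no fall was established at the limits. Over the alternatives tried for miR-92b the limma adjusted p ran from 9.7e-05 to 0.97, the lowest from a fit with floor values. Without E16 replicate 4 the same comparison gave -1.25, or 2.38-fold. There too only the E16 value of replicate 2 was measured, so the interval and p are not given and no verdict is drawn. These limits were set after the data were seen.

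**Figure D2:**
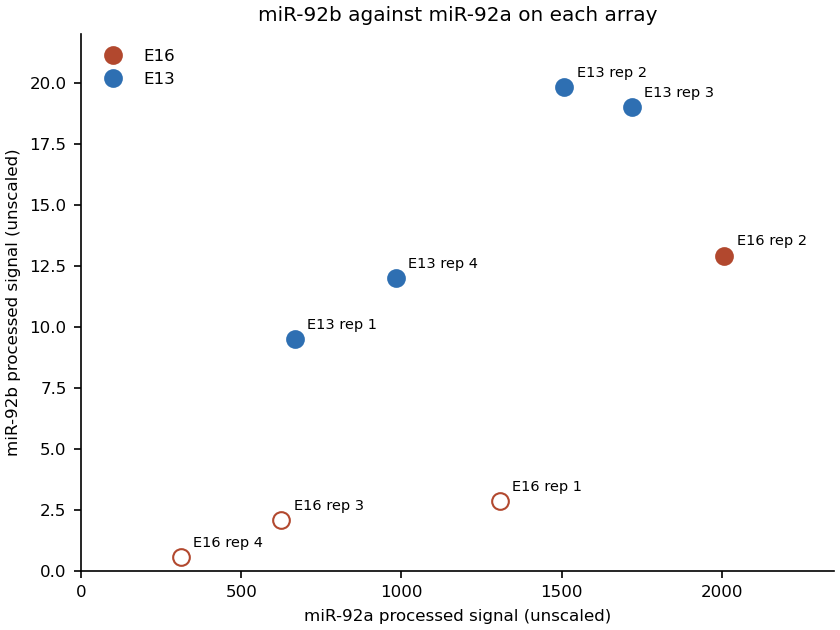
Processed signal of the 13-base probe of miR-92b against that of the 17-base probe of miR-92a on the same array, both in arbitrary intensity units on linear axes before any scaling, 1 point per array, E16 in red and E13 in blue, filled where miR-92b was well above background. E16 replicate 3 and E13 replicate 1, a pair chosen after the values were seen, had similar miR-92a signals (625 and 667). Their miR-92b signals were 2.07 and 9.50.

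miR-92a, encoded in 2 clusters, was well above background on every array and was lower at E16 when each array was scaled by the 75th percentile of its detected probes. Other ways of scaling did not all give this call. Its processed signal was 1308, 2008, 625 and 310 on E16 replicates 1 to 4, against 667, 1509, 1719 and 983 on E13 replicates 1 to 4. Before scaling, the stages overlapped. The scaled log2 signal was 1.10, 1.43, 1.15 and 1.51 at E16 (mean 1.30 ± 0.20, SD, n = 4), against 2.04, 2.25, 1.81 and 1.74 at E13 (mean 1.96 ± 0.23, SD, n = 4), and the stages did not overlap. The log2 difference was -0.66 (SE 0.18, 95% confidence interval -1.06 to -0.26, limma adjusted p = 0.017), so miR-92a was 1.58-fold higher at E13. The shorter, 16-base probe of miR-92a gave -0.62 (SE 0.18, limma adjusted p = 0.025). Within slide 2 (E16 replicates 2 and 3, E13 replicates 1 and 2) the difference was -0.86, and within slide 3 (E16 replicate 4, E13 replicates 3 and 4) it was -0.26. Slide 3 holds 1 E16 array, the dimmest, and the median of all tested miRNAs there was -0.76, so miR-92a lay 0.49 above it.

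The call for miR-92a depended on the processing. The limma difference was -0.22 with medians set equal (adjusted p = 0.45), -0.53 with the total signal per miRNA (adjusted p = 0.12) and -0.62 with slide as a fixed term (adjusted p = 0.053), and none of these passed. It was 0.16 when all mouse probes set the percentile (adjusted p = 0.64), where the median of all tested miRNAs was 0.41. Over all alternatives the adjusted p ran from 0.014 to 0.97. Relative to the median of all tested miRNAs, miR-92a lay between -0.70 and -0.26 on the log2 scale under the 6 scalings and background corrections compared, and at -0.17 with the total signal or with slide as a fixed term. The call ended without E13 replicate 1 or 2 or E16 replicate 3, with differences of -0.74 to -0.57 over the 8 arrays left out in turn. The opposite arm, miR-92a*, was well above background on no array.

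**Figure D3:**
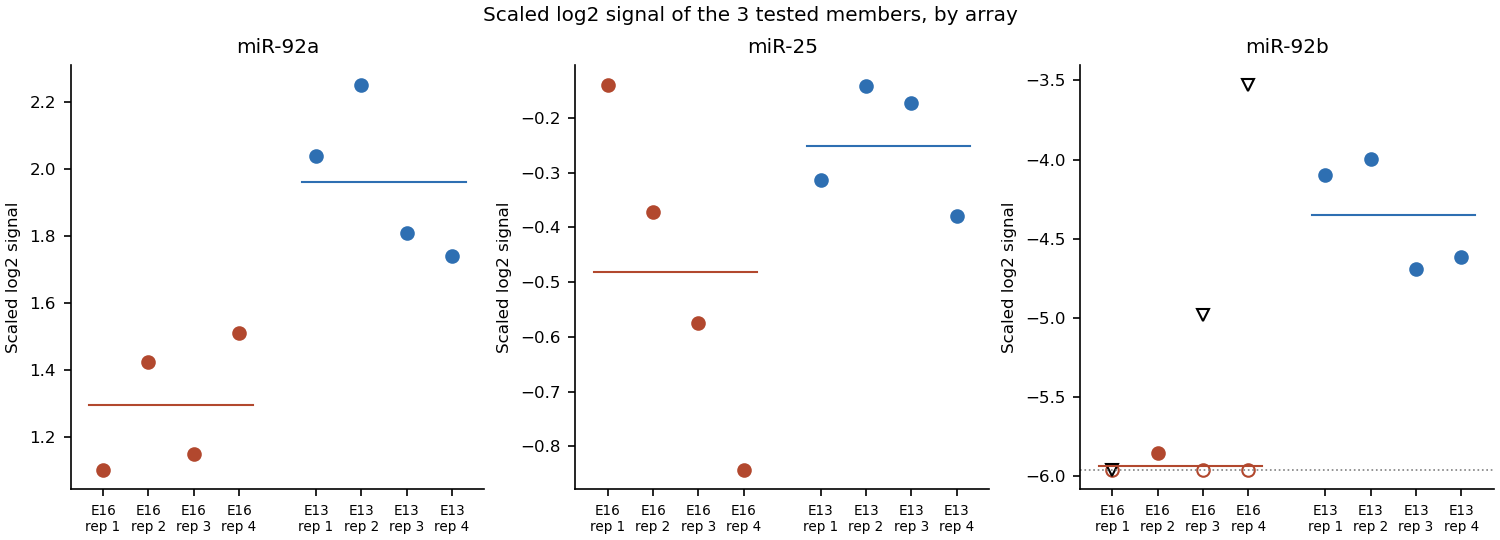
Scaled log2 signal (processed signal over the array's 75th percentile) of miR-92a, miR-25 and miR-92b, 1 point per array, E16 left of E13, with horizontal lines at the mean of 4 arrays, a dotted line at the floor of -5.96, open circles for values not well above background and triangles for the detection limits of those arrays. The points of the stages do not overlap for miR-92a and miR-92b, where 3 E16 values are at the floor and the limit of E16 replicate 4 lies above all E13 values, and they overlap for miR-25.

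miR-25, the member encoded within Mcm7, showed no difference that passed the test. Its processed signal was 553, 578, 189 and 60.6 on E16 replicates 1 to 4, against 131, 287, 435 and 226 on E13 replicates 1 to 4. The highest and the lowest of the 8 values were both from E16. The scaled log2 signal was -0.14, -0.37, -0.57 and -0.84 at E16 (mean -0.48 ± 0.30, SD, n = 4), against -0.31, -0.14, -0.17 and -0.38 at E13 (mean -0.25 ± 0.11, SD, n = 4), with overlap. The log2 difference was -0.23 (SE 0.18, 95% confidence interval -0.64 to 0.18, limma adjusted p = 0.33). The shorter, 17-base probe, well above background on 7 arrays, gave -0.21. The difference was 0.59 when all mouse probes set the percentile and 0.22 with medians set equal, so no direction can be given for miR-25. Relative to the median of all tested miRNAs it lay between -0.07 and 0.18 under the 6 scalings and corrections.

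**Figure D4:**
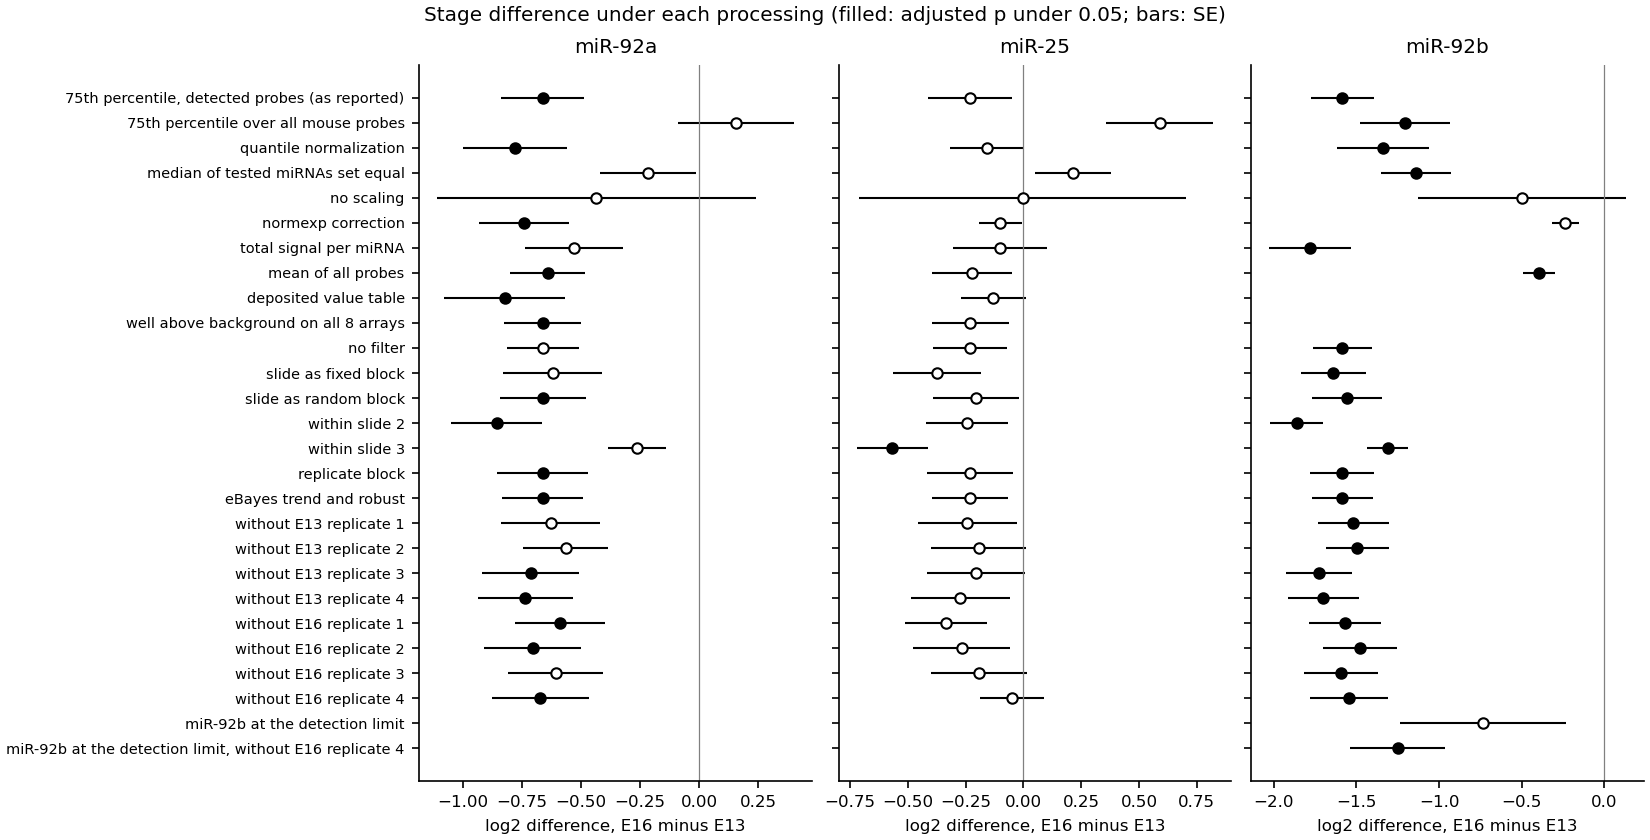
Log2 difference (E16 minus E13) of miR-92a, miR-25 and miR-92b under each processing alternative, with bars for the SE, filled where the limma adjusted p was under 0.05 (slide 3 holds 1 E16 array). The fits of miR-92b rest on floor values except at the detection limits and with normexp correction (-0.24), and miR-92b stayed below 0 throughout. miR-92a turned to 0.16 when all mouse probes set the percentile, and miR-25 turned to 0.59 there and to 0.22 with medians set equal.

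miR-32 and miR-363, the members with the least sequence in common with miR-92a, stayed near background and did not meet the filter. miR-32 had signals of 16.2, 8.14, 5.26 and 1.16 on E16 replicates 1 to 4, against 2.21, 1.10, 6.91 and 4.77 on E13 replicates 1 to 4, and only E16 replicate 1 was well above background, with 5 of 5 spots. Its 19-base probe was well above background on the same array alone, at 11.5. miR-363 had signals of 6.92, 3.77, 2.47 and -0.538 on E16 replicates 1 to 4, against 3.48, 4.97, 13.3 and 7.85 on E13 replicates 1 to 4, and only E13 replicate 3 was well above background, with 10 of 10 spots. Each was thus seen on a single array. With no filter on dim probes, over all 611 miRNAs, the limma difference was 0.23 for miR-32 (95% confidence interval -0.19 to 0.65, adjusted p = 0.39) and -0.48 for miR-363 (95% confidence interval -0.91 to -0.05, adjusted p = 0.24). Neither passed, and with all 4 E16 values of miR-363 and 3 of the 4 E13 values of miR-32 at the floor these intervals are not exact. miR-367, the seed sharer outside the list, was well above background on no array, with its 20-base probe between -0.466 and 0.837.

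The 2 bright members were also compared within each array, where scaling cancels. The log2 signal of miR-25 minus that of miR-92a was -1.24, -1.80, -1.72 and -2.35 on E16 replicates 1 to 4 (mean -1.78 ± 0.46, SD, n = 4), against a mean of -2.21 ± 0.19 (SD, n = 4) on the E13 arrays. The difference between stages was 0.43, and 3 of 4 E16 arrays lay above the highest E13 array while replicate 4 lay within the E13 range. It did not pass a two-sided exact permutation test (p = 0.14, 0.57 after Benjamini-Hochberg adjustment over 4 such comparisons, smallest possible p 0.029), and within slide 3 it was -0.30.

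miR-92a and miR-25 were set against the miRNAs transcribed with them. Across the miR-17-92, miR-106b-25 and miR-106a-363 clusters, a list of 10 cluster mates, 9 on the array, gave 8 that were tested. Of these 3 were lower at E16 (miR-18a, miR-17 and miR-20b), 0 were higher and 5 did not pass, against the 26.1% lower among all tested miRNAs, and at an unadjusted p under 0.05 the counts were 5 lower and 0 higher, against 53 lower and 16 higher of all 153 miRNAs. With all mouse probes setting the percentile none of these 3 passed, with miR-18a at -0.33, miR-17 at -0.21 and miR-20b at 0.25. miR-17 was dim and well above background on 3 arrays of each stage. Its scaled log2 signal was -5.79 and -5.88 on E16 replicates 1 and 4, near the floor of -5.96. The call of miR-17 was lost in 9 of 14 processing alternatives, among them quantile normalization (-0.35), normexp correction (-0.07) and slide 2 alone (-0.33). That of miR-20b was lost in 7 of 16 with the direction kept, among them medians set equal (-0.13), slide 2 alone (-0.41) and the replicate block (-0.57, limma adjusted p = 0.068), beside the turn to 0.25. Leaving out E13 replicate 1, 3 or 4 ended the calls of miR-17 (-1.05 to -0.94) and miR-20b (-0.56 to -0.52), as did leaving out E16 replicate 1 (-0.85) or 4 (-0.77) for miR-17 and E16 replicate 2 (-0.57) for miR-20b. The median log2 difference of the 8 mates was -0.47, close to the -0.40 of all miRNAs tested. miR-18a, from the same transcript as miR-92a, had a scaled log2 signal of -0.96, -1.17, -0.83 and -1.63 on E16 replicates 1 to 4, against 0.16, -0.33, 0.12 and 0.07 on E13 replicates 1 to 4 (difference -1.15, SE 0.21, limma adjusted p = 0.0023). miR-19b, which both miR-92a clusters encode, had a difference of -0.18 (SE 0.24, limma adjusted p = 0.60), and it turned to 0.64 when all mouse probes set the percentile. Whether the 2 changes differ was not tested.

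The log2 signal of miR-92a minus the mean of miR-18a, miR-19a, miR-20a and miR-19b differed by -0.09 between stages (exact permutation p = 0.74, also 0.74 adjusted over the 4 comparisons). Against miR-20b and miR-19b of the X-linked cluster the difference was -0.29 (exact permutation p = 0.43, adjusted 0.74). For miR-25 minus the mean of miR-106b and miR-93, its neighbours in Mcm7, it was -0.08 (exact permutation p = 0.57, adjusted 0.74). miR-93 had a limma difference of -0.31 (SE 0.13, adjusted p = 0.088) and miR-106b of 0.01 (SE 0.26, adjusted p = 0.97), values that surround the -0.23 of miR-25. Within slide 3, where E16 is replicate 4 alone, the comparisons of miR-92a with its miR-17-92 and X-linked mates turned to 0.94 and 0.64.

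**Figure D5:**
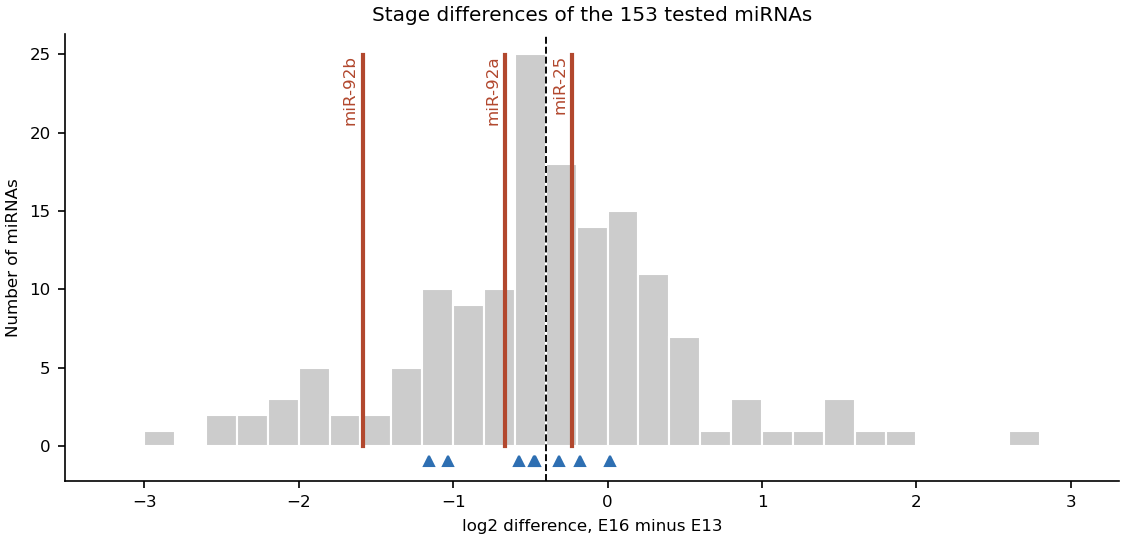
Histogram of the log2 difference (E16 minus E13) of the 153 tested miRNAs, with vertical lines at the 3 tested members, triangles under the axis at the 8 tested cluster mates (some overlie each other) and a dashed line at the median of all tested miRNAs (-0.40). miR-92b (-1.59, with 3 E16 values at the floor) and miR-92a (-0.66) lie below that median and miR-25 (-0.23) above it.

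Among the other 74 miRNAs well above background on all 8 arrays, those whose scaled log2 signal followed miR-92a most closely were miR-99b (Pearson r = 0.941), miR-296-5p (0.912) and miR-125a-5p (0.910). For miR-25 they were miR-151-5p (0.967), miR-361 (0.866) and miR-324-5p (0.819). These correlations are over 8 arrays that share their scaling and fall into 2 stages, and they are given as a description only.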

How the data were processed

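The authors made a processed intensity per spot with Agilent Feature Extraction 10.7.3.1 (background-subtracted with spatial detrending, not scaled between arrays, and negative for some spots), per the file headers, which also name mm9. The version is in the submitters' processing notes too. The authors also deposited a table of log2 values, used only as an alternative. In it all arrays had the same median (6.90) and each ranked its 1187 spots as the processed signal did, so it was taken as quantile-normalized with higher meaning brighter, and the software behind it is unknown here. Control spots and outlier spots (1.91% to 3.87% of mouse spots per array) were left out, 0 spots were saturated, and spots of a probe were averaged. A probe was well above background when a share of at least 0.5 of its spots was. Signals were divided by the array's 75th percentile over the 126 probes well above background on all 8 arrays, floored at percentile 1 of scaled signals well above background (log2 -5.96), and logged. The brightest probe stood for its miRNA. Stages were compared with limma 3.58.1 in R 4.3.3 (two-sided, Benjamini-Hochberg over 153 miRNAs), checked on simulated data. The number of arrays limits the precision.

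The miRNAs named were the members, opposite arms, sharers of the seed, cluster mates, and per member detected on all arrays the 3 miRNAs most correlated with it. The members and lists were chosen with earlier results of these data known. Alternatives covered scaling, background correction, probe summary, dim-probe filter, slide, replicate number, variance model and leaving out each array.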

Additional observations from a re-analysis of the deposited data

Results flagged for a closer look

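miR-20a, a cluster mate of miR-92a, had 1 E13 array apart from the others. Its scaled log2 signal was 1.32 on E13 replicate 2, against 1.67, 1.69 and 1.68 on E13 replicates 1, 3 and 4, and the gap to the nearest value was 0.945 of the range. It was 1 of 29 groups of 4 arrays examined in this way, where chance sets apart about 1 group in 20.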

How the results depend on the processing

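Of 25 alternatives, miR-92a kept a difference below 0 in 24 and its call in 15. It turned to 0.16 when all mouse probes set the percentile, and lost the call with medians set equal (-0.22), without scaling (-0.44), with the total signal per miRNA (-0.53), without a filter on dim probes (-0.66), with slide in the fit (-0.62) and on slide 3 (-0.26). Leaving out E13 replicate 1, E13 replicate 2 or E16 replicate 3 also ended it (-0.74 to -0.57 over all arrays left out in turn). miR-92b stayed below 0 in all 24 of its alternatives, but neither this sign nor its calls are a test. It met the filter through the E13 arrays, and 3 of its 4 E16 values were at the floor in the fit as reported. miR-92b lost the call without scaling (-0.50) and with normexp correction (-0.24). It was -0.73 at the detection limits and -0.40 with the mean of all probes, and ranged from -1.73 to -1.48 with 1 array left out. It was not in the deposited value table and did not meet the filter for detection on all 8 arrays. miR-25 turned to 0.59 under the all-probe percentile and 0.22 with medians set equal, was -0.57 within slide 3, which holds 1 E16 array and gives no verdict, and ranged from -0.33 to -0.05 with 1 array left out. The members lower numbered 1, against 2, in the settings that follow. The 1 was miR-92b under the all-probe percentile, medians set equal, the total signal, no filter on dim probes and slide in the fit. It was miR-92a with normexp correction, in the deposited table and among miRNAs detected on all arrays. The count was 0 without scaling and 1 to 2 with 1 array left out. Without scaling 0 of 153 miRNAs were lower and 1 higher with limma (5 and 6 at an unadjusted p under 0.05). Over all miRNAs 40 were lower and 11 higher. The count lower was 16 under the all-probe percentile, 23 with medians set equal, 19 with the total signal, 11 in the deposited table, 10 among miRNAs detected on all arrays, 25 within slide 2 and 88 within slide 3 (22 to 46 with 1 array left out). The count higher was 47 under the all-probe percentile, 30 with medians set equal, 20 with quantile normalization and 19 with normexp correction. It was 9 of the 75 miRNAs detected on all arrays, and 8 to 23 with 1 array left out, the highest without E16 replicate 4. miR-25 minus miR-92a was -0.30 within slide 3 (0.25 to 0.62 with 1 array left out). miR-92a minus its miR-17-92 mates was 0.94 within slide 3 (-0.32 to 0.15), and minus its X-linked mates 0.64 (-0.49 to -0.06). miR-25 minus its mates turned to 0.018 with quantile normalization, 0.052 with normexp correction and 0.032 in the deposited table (-0.15 to 0.02). Under the all-probe percentile miR-19a, miR-19b, miR-20a, miR-20b and miR-93 turned to 0.34, 0.64, 0.35, 0.25 and 0.51, and with medians set equal miR-19b and miR-93 to 0.27 and 0.13. miR-19b was 0.051 without scaling, 0.20 within slide 2 and -0.36 to 0.033 with 1 array left out, above 0 without E16 replicate 4. miR-106b turned to -0.00031 with quantile normalization, -0.0015 with normexp correction, -0.018 in the deposited table, -0.14 with slide in the fit, -0.78 on slide 3 and -0.13 to 0.27 with 1 array left out. Replicate numbers did not pair the samples (correlations of same-numbered deviations from -0.13 to 0.27). With the replicate block the differences were -0.66 for miR-92a, -1.59 for miR-92b and -0.23 for miR-25, with 10 miRNAs higher and 35 lower, and of the miRNAs named only miR-20b lost its call. The causes of these changes were not tested. The detection limits and the single-probe values were added after the data were seen.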
